A study of Mus musculus with 8 samples.

Results

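The genes described here are 8 markers of border macrophages (*Mrc1*, *Cd163*, *Lyve1*, *Pf4*, *F13a1*, *Cbr2*, *Ms4a7* and *Stab1*) together with *Ccl24* and *Retnla*, a chemokine gene and a gene for a secreted resistin-like protein. They were chosen by name, as 10 of the 20308 genes in the count table, to ask whether *Ccl24* and *Retnla* moved with the border macrophage markers from mouse to mouse. All 10 passed the filter on low counts, which kept 13407 genes.

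CD11b+ cells were enriched with magnetic beads from the right brain hemisphere of PBS-perfused mice aged p14 or p15, after myelin was removed with Percoll, and their RNA was sequenced. All mice were F1 offspring of C57Bl/6 and CD1. The 4 CSF1 OE mice carry a TRE/tTA transgene for secreted CSF1, the growth factor of microglia and other macrophages, in a subset of GFAP+ cells, and the 4 control mice lack this overexpression. Each mouse gave 1 library, with 12053259 to 15475465 counts. The labels name the mice by animal number, with 1827, 1872, 1874 and 1934 as control and 1931, 1932, 1936 and 2019 as CSF1 OE mice. *Csf1* itself did not separate the genotypes in these cells, with 139 to 364 CPM (counts per 1000000 counts of the scaled library) in control and 167 to 400 CPM in CSF1 OE mice (log2 fold change 0.19, standard error 0.33, adjusted p = 0.796 from edgeR). The transgene is driven in GFAP+ cells, which the beads do not select, and the part of this in the *Csf1* values was not tested. By RT-qPCR the study reported higher *Csf1* in CSF1 OE than in control mice at p14. Apart from the bead-enriched cells, its methods describe RNA only from homogenized brain hemisphere tissue of C57Bl/6 mice. That tissue and strain differ from those sequenced here, so the RT-qPCR result is not directly comparable with the CPM above. The summed level of 14 homeostatic microglia genes was 28052 to 50801 CPM per mouse, against 2081 to 4014 CPM for the 8 border markers.

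Border macrophages live along vessels, in the meninges and in the choroid plexus. They carry CD11b, as microglia do, so that beads against CD11b take up both, and they are told apart from microglia by scavenger and lectin receptors such as those encoded by *Mrc1*, *Cd163*, *Lyve1* and *Stab1*. *Retnla* and *Ccl24* are well known as genes that interleukin-4 and interleukin-13 switch on in macrophages through STAT6, and for this reason both are used as markers of M2 polarization, as *Mrc1* is. The study singled out *Ccl24* and *Retnla* on these same libraries, so their lower level in CSF1 OE is not independent evidence here. In bulk RNA, fewer cells of a type and less RNA per cell cannot be told apart.

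Across mice within the genotypes, *Retnla* had a positive correlation with 8 of 8 border markers, of which 4 had an unadjusted p under 0.05 and 0 passed adjustment. The 8 markers also varied with one another over the same mice, so these correlations are not separate results. The correlations of *Ccl24* with the same markers lay between -0.190 and 0.268. Both genes and all 8 markers had lower means in CSF1 OE than in control, and 0 of the 10 were called by edgeR, beside 0.0522% of all genes tested called lower, whereas DESeq2 called 3 (*Cd163*, *Ccl24* and *Retnla*), beside 1.22%. The mean of *Retnla* was also lower relative to each of the markers, as its log2 fold change was below that of every marker. The corresponding log2 ratios of *Ccl24* were lower to 7 of the 8 markers, by smaller differences, and 0.08 higher to *Cd163*. The genotypes overlapped in all 8, and no ratio of either gene passed adjustment.

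Sequence upstream of the members was available from RefSeq (GRCm38.p6) for 8 of the 10 genes, in 10 windows of 250 bases before a start site, with no entry for *Ccl24* and *Lyve1*. Short motifs were searched on both strands. The STAT6 spacing, TTC and GAA with 4 bases of any kind between them, was present in 2 of the 10 windows and in 5.85% of all 32851 windows. It lay before *Retnla* and before a start site of *Ms4a7*, though not before the other start site of *Ms4a7*. The spacing of other STAT proteins, with 3 bases between the same ends, was in 0 of the 10 windows and in 7.02% of all. GAGGAAGT, a PU.1 site, was present before *Retnla* and *Pf4* and in 2.44% of all windows. TGCTGAC, a part of the site of Maf proteins, was in the *Retnla* window and in 3.81% of all. The windows that hold the STAT6 spacing are shown, with the matches in capitals. That of *Retnla* ends where GENCODE begins the gene, 58 bases before the RefSeq start, so that the Maf match is not in it.
*Retnla*, chr16:48842359-48842550, plus strand: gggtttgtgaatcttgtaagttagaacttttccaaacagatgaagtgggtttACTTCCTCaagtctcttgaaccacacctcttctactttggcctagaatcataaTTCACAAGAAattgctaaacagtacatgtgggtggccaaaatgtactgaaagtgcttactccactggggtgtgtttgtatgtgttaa
*Ms4a7*, chr19:11336147-11336396, minus strand: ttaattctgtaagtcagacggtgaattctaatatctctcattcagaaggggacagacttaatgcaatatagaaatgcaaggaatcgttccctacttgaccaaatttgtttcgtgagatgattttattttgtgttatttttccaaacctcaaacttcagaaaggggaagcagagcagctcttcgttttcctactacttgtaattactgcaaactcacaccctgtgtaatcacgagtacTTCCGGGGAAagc
In *Retnla* the capitals mark the PU.1 match, on the opposite strand, and then the STAT6 spacing, which begins 145 bases before the start site. In *Ms4a7* they mark the STAT6 spacing, which begins 13 bases before the start site. A match of letters describes the sequence only, and no binding was measured here.

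*Mrc1*, on chromosome 2 from 14229392 to 14332057, encodes the mannose receptor CD206. It had 807, 1211, 1217 and 1155 CPM in control mice 1827, 1872, 1874 and 1934, and 856, 760, 657 and 1009 CPM in CSF1 OE mice 1931, 1932, 1936 and 2019. Control mouse 1827 stood apart from the other control mice and within the range of CSF1 OE. The log2 fold change from edgeR was -0.42 ± 0.18 (standard error), with an adjusted p of 0.279.

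*Cd163*, on chromosome 6 from 124304656 to 124330527, encodes the scavenger receptor for haemoglobin bound to haptoglobin. In the same order of mice it had 106, 235, 337 and 281 CPM in control mice against 119, 113, 89.2 and 124 CPM in CSF1 OE. Control mouse 1827 lay below 3 of the 4 CSF1 OE mice, whereas the other control mice lay above every CSF1 OE mouse. This gave the largest log2 difference among the markers in edgeR, -1.11 ± 0.30 (standard error), with an adjusted p of 0.132. Without control mouse 1827 it was -1.35 and passed the test (adjusted p = 0.0314 from edgeR). With any other mouse left out it did not pass (adjusted p of 0.162 or more from edgeR), and it was -0.90 without control mouse 1874.

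*Lyve1*, on chromosome 7 from 110850607 to 110863239, encodes a hyaluronan receptor shared by lymphatic endothelium and border macrophages. It had 165, 247, 253 and 281 CPM in control mice and 245, 227, 166 and 206 CPM in CSF1 OE mice. The genotypes overlapped over most of their range, and the log2 fold change of -0.16 was the smallest among the markers (standard error 0.18, adjusted p = 0.674 from edgeR). *Stab1*, on chromosome 14 from 31139013 to 31168641, encodes the clearance receptor stabilin-1. It had 1379, 1624, 1419 and 1197 CPM in control mice against 1306, 1053, 829 and 1318 CPM in CSF1 OE mice. Here the lowest control mouse was 1934 and not 1827, and the log2 fold change from edgeR was -0.32 ± 0.17 (standard error, adjusted p = 0.388).

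*Pf4*, on chromosome 5 from 90772435 to 90773383, encodes platelet factor 4, a chemokine of platelets that border macrophages also make. It had 53.9, 72.6, 82.3 and 73.6 CPM in control mice against 48.6, 51.7, 46.1 and 58.1 CPM in CSF1 OE mice, so that only CSF1 OE mouse 2019 and control mouse 1827 overlapped. The log2 fold change from edgeR was -0.47 ± 0.13 (standard error), with an adjusted p of 0.144, and without control mouse 1827 it was -0.57 (adjusted p = 0.0468). With any other mouse left out the adjusted p from edgeR was 0.128 or more, and the log2 fold change was -0.38 without control mouse 1874. The summed level of 8 other platelet genes was 10.9 to 14.6 CPM in control mice against 12.9 to 17.7 CPM in CSF1 OE mice. Of the 4 that were tested 2 were lower and 2 higher with 0 called, the largest difference being in *Gp1ba*, a subunit of the receptor for von Willebrand factor (log2 fold change 0.97, standard error 0.27, adjusted p = 0.135 from edgeR), which was higher in every CSF1 OE mouse. The most abundant, *Gp9*, had 6.29 ± 1.53 and 6.16 ± 1.26 CPM. Among the untested genes *Ppbp* was lower in every CSF1 OE mouse (0.605 to 1.06 against 0.0682 to 0.443 CPM, at most 18 counts). *Clec1b*, also untested, had a higher mean in CSF1 OE (0.129 against 0.321 CPM).

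*F13a1*, on chromosome 13 from 36867178 to 37050244, encodes the A subunit of coagulation factor XIII, which macrophages hold in the cell. It had 306, 441, 404 and 377 CPM in control mice against 306, 240, 206 and 351 CPM in CSF1 OE mice (log2 fold change -0.47, standard error 0.18, adjusted p = 0.244 from edgeR). *Cbr2*, on chromosome 11 from 120729489 to 120732114, encodes a carbonyl reductase. Its values were 96.7, 147, 146 and 106 CPM in control mice against 106, 66.9, 67.5 and 93.3 CPM in CSF1 OE mice (log2 fold change -0.57, standard error 0.19, adjusted p = 0.203). In both genes CSF1 OE mice 1932 and 1936 were far below every control mouse, while 1931 was just under the lowest control mouse in *F13a1* and within the control range in *Cbr2*.

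*Ms4a7*, on chromosome 19 from 11321039 to 11336146, encodes a membrane protein of the MS4A family that separates border macrophages from microglia. It had 22.6, 36.6, 38.2 and 22.9 CPM in control mice against 25.5, 15.7, 20.3 and 28.9 CPM in CSF1 OE mice. The control mice fell into a high and a low pair, and the low pair, 1827 and 1934, lay among the CSF1 OE values. The log2 fold change from edgeR was -0.41 ± 0.24 (standard error), with an adjusted p of 0.422.

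*Ccl24* lies on chromosome 5 from 135569937 to 135573049 and encodes eotaxin-2, which attracts eosinophils through the receptor CCR3. It had 38.8, 44.9, 46.0 and 30.6 CPM in control mice and 13.8, 29.6, 20.5 and 23.3 CPM in CSF1 OE mice. All 4 CSF1 OE mice were below all 4 control mice, although control mouse 1934 and CSF1 OE mouse 1932 differed by less than the spread within either genotype. *Ccl24* was the only one of the 10 genes whose genotypes did not overlap, against a background of 3.45% of all genes tested with every CSF1 OE mouse below every control mouse. Its log2 difference in edgeR was -0.88 ± 0.22 (standard error), with an adjusted p of 0.108.

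*Retnla* encodes RELM-alpha, also called FIZZ1, and lies on chromosome 16 from 48842551 to 48844461. It had 13.6, 28.6, 26.6 and 18.1 CPM in control mice and 7.23, 6.17, 7.97 and 13.7 CPM in CSF1 OE mice. CSF1 OE mouse 2019 just exceeded control mouse 1827, and these were the only mice that overlapped. CSF1 OE mice had 40.3% of the control level, and the log2 fold change from edgeR, -1.31 ± 0.31 (standard error, adjusted p = 0.0899), was the 44th lowest of 13407 genes. *Retnla* rested on the fewest counts of the 10 genes, 84 to 413 per library, against 168 to 649 for *Ccl24* and 9642 to 19527 for *Mrc1*.

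**Figure D1:**
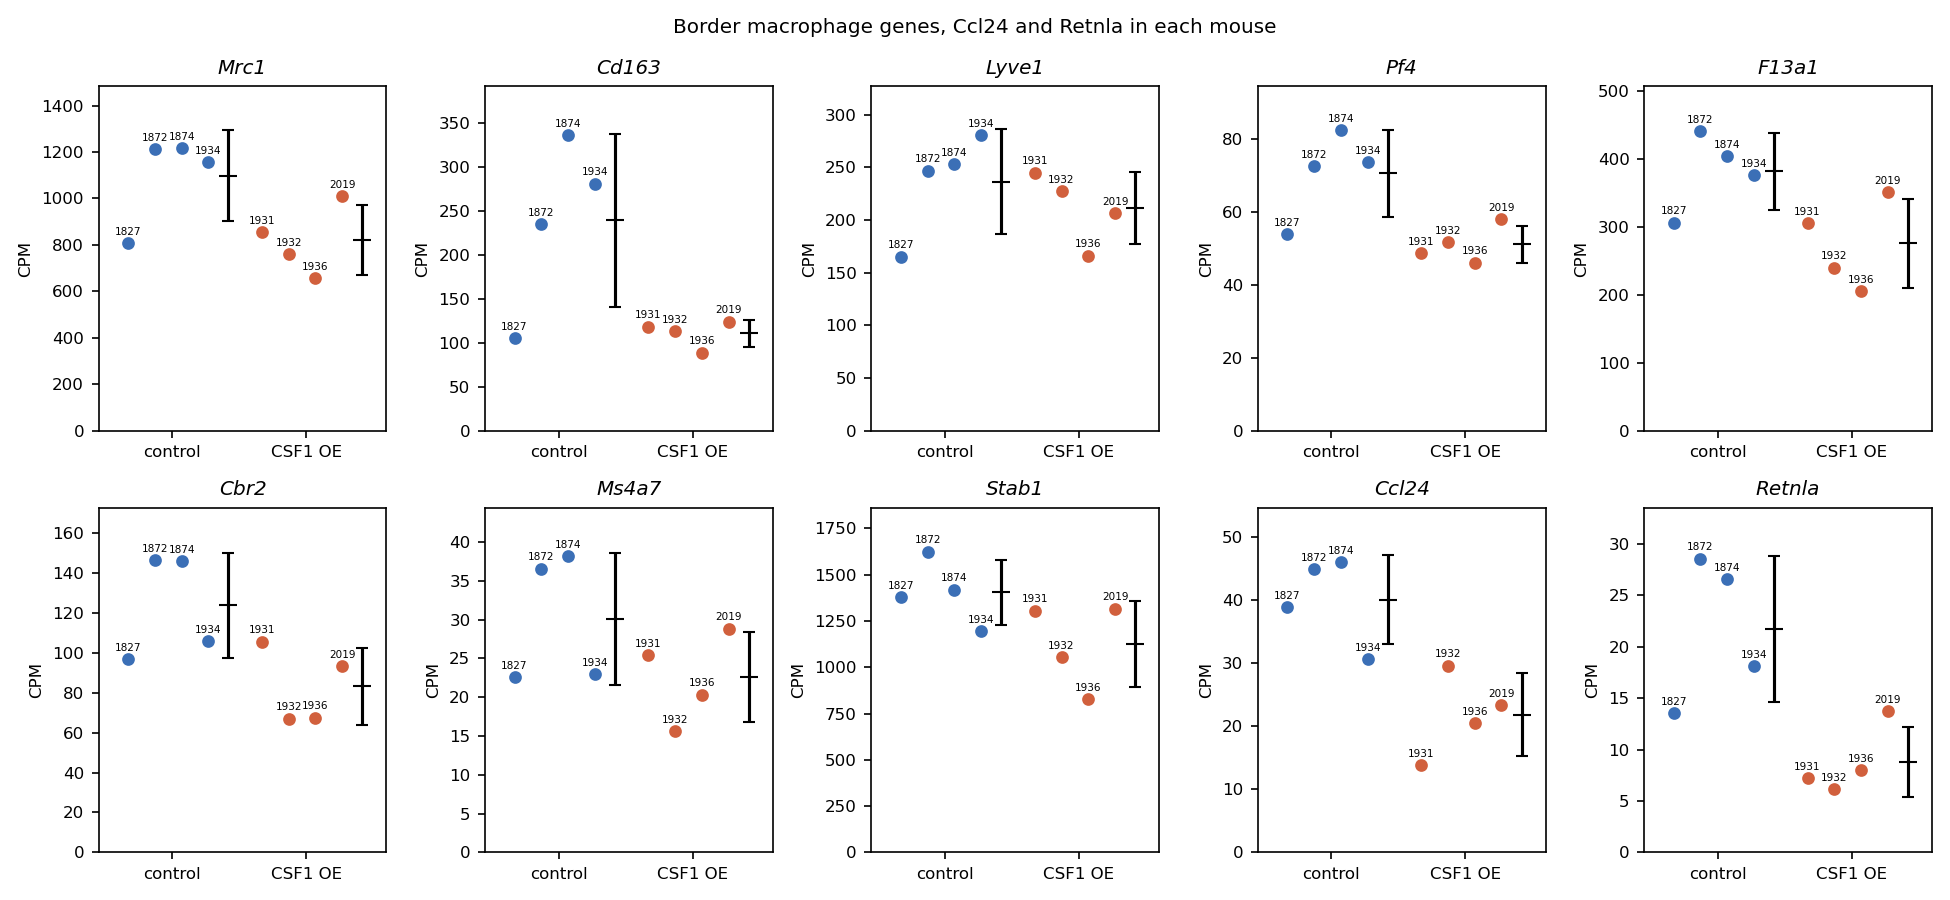
CPM (vertical axes, from 0) of the 8 border markers, *Ccl24* and *Retnla* in each control (blue) and CSF1 OE (orange) mouse, labelled by animal number; black bars are the mean ± SD of 4 mice. Control mouse 1827 is the lowest control mouse in 7 of the 8 markers and in *Retnla*, but not in *Ccl24*, where the genotypes do not overlap.

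A call required an adjusted p under 0.05 together with a fold change below 0.7 or above its inverse. By this rule edgeR called 0 of the 10 genes, beside 0.440% of all genes tested in either direction and 0.0522% that were lower. With an unadjusted p under 0.05, 5 of the 8 markers and also *Ccl24* and *Retnla* were lower, beside 6.44% of all genes. DESeq2 called 3 of the 10, *Cd163* (adjusted p = 0.0107), *Ccl24* (adjusted p = 0.00768) and *Retnla* (adjusted p = 0.00241), beside 1.22% of all its genes called lower. Without control mouse 1827, edgeR called *Cd163* and *Pf4*, beside 0.207% of all genes called lower. With any other mouse left out it called 0 of the 10. The median log2 fold change of the 8 markers was -0.44, against -0.03 over all genes tested.

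Per kilobase of annotated exon, the control level was 172 ± 30.7 CPM for *Mrc1*, 137 ± 17.03 for *Stab1*, 97.9 ± 16.6 for *Pf4*, 93.2 ± 19.8 for *Cbr2*, 81.0 ± 17.02 for *Lyve1*, 56.7 ± 8.46 for *F13a1*, 43.9 ± 18.0 for *Cd163*, 36.2 ± 11.8 for *Retnla*, 30.9 ± 5.45 for *Ccl24* and 6.75 ± 1.90 for *Ms4a7* (SD, n = 4). Neighbours in this order from *Pf4* to *Lyve1*, and from *Cd163* to *Ccl24*, differed by less than their SD. *Retnla* and *Ccl24* were thus at the lower end of the markers, above *Ms4a7* alone.

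To compare the genes mouse by mouse, the mean of a genotype was subtracted from the log2 CPM of each mouse, which leaves the variation among mice of 1 genotype. The 8 markers varied together, with a positive correlation in 28 of 28 pairs, from 0.201 (*Cd163* and *Stab1*) to 0.938 (*Cd163* and *Pf4*) and a median of 0.706. These correlations share 8 libraries and their depth, and are given as a description. Control mouse 1827 and CSF1 OE mouse 1936 were below their genotype mean in 8 of 8 markers. Control mice 1872 and 1874 were above it in 8 of 8, and CSF1 OE mice 1931 and 2019 in 7 of 8.

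*Retnla* lay on the same side of its genotype mean as the mean of the 8 markers in 6 of 8 mice, all except control mouse 1934 and CSF1 OE mouse 1931. Its deviation from the genotype mean (log2 CPM) was -0.61 in control mouse 1827, where the mean of the 8 markers was at -0.42, and 0.70 in CSF1 OE mouse 2019, where the markers were at 0.23. Over 8 mice its correlation was 0.865 with *Ms4a7* (rho = 0.881), 0.787 with *Mrc1* (rho = 0.833), 0.752 with *F13a1* (rho = 0.667) and 0.752 with *Pf4* (rho = 0.690). These 4 had a p of 0.0330, 0.0382, 0.0486 and 0.0469 in a two-sided exact permutation test within the genotypes. In the same permutation test, the p values of rho in that order were 0.0208, 0.0382, 0.115 and 0.0885. After Benjamini-Hochberg adjustment over the 17 relations computed, the 4 correlations had an adjusted p of 0.207 in the exact permutation test, the lowest of all, and the adjusted p of rho was 0.325 or more. With 1 mouse left out, 0 to 3 markers had an unadjusted p under 0.05, with 0 without control mouse 1872, without CSF1 OE mouse 1932 or without CSF1 OE mouse 2019.

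With the other 4 markers *Retnla* had a correlation of 0.687 (*Cbr2*, rho = 0.548), 0.583 (*Cd163*, rho = 0.524), 0.456 (*Stab1*, rho = 0.429) and 0.275 (*Lyve1*, rho = 0), with p from 0.113 to 0.531 for r in the exact permutation test. Without the 2 mice farthest from the median of the marker, the correlation of *Retnla* was 0.921 with *Mrc1*, 0.901 with *Cbr2*, 0.835 with *F13a1*, 0.763 with *Ms4a7* and 0.600 with *Pf4*. It was 0.431 with *Stab1*, 0.121 with *Cd163* and -0.742 with *Lyve1*, so that the relations with *Cd163* and *Lyve1* rested on those mice. The mice left out for both included control mouse 1827, and without that mouse alone the correlation with *Lyve1* was -0.363.

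*Ccl24* lay on the side of the markers in 5 of 8 mice, and the mice in which it deviated most lay on the other side. CSF1 OE mouse 1931 had the lowest *Ccl24* of all 8 mice, with a deviation of -0.60, although 7 of its 8 markers were above theirs. CSF1 OE mouse 1932 had the highest *Ccl24* of its genotype, with a deviation of 0.49, and at the same time the lowest *Retnla* of all 8 mice. Control mouse 1827, the lowest control mouse in most markers, had a *Ccl24* deviation of -0.03. The correlations of *Ccl24* with the 8 markers ran from -0.190 (*Cbr2*) to 0.268 (*Pf4*), with rho from -0.190 to 0.381, and 3 of 8 were above 0. Their p ran from 0.462 to 0.998 in the exact permutation test, and every adjusted p was 0.981 or more. Without the 2 mice farthest from the marker's median they ran from -0.694 to 0.529. Leaving out CSF1 OE mouse 1931 alone gave correlations above 0 with 8 of 8 markers (0.152 to 0.562, lowest p = 0.222 in the exact permutation test), leaving out 1932 gave 7 of 8, and leaving out control mouse 1874 gave 1 of 8. *Ccl24* and *Retnla* had a correlation of 0.240 with each other (rho = 0.190, exact permutation test, p = 0.590, adjusted p = 0.994), and 0.0291 without the 2 farthest mice. It was 0.686 without CSF1 OE mouse 1932 and 0.142 without CSF1 OE mouse 1931, 0.471 on CPM without the log and 0.756 with no genotype mean subtracted, and its adjusted p was 0.0782 or more in each of these. The difference between the correlations of *Ccl24* and of *Retnla* was not tested.

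**Figure D2:**
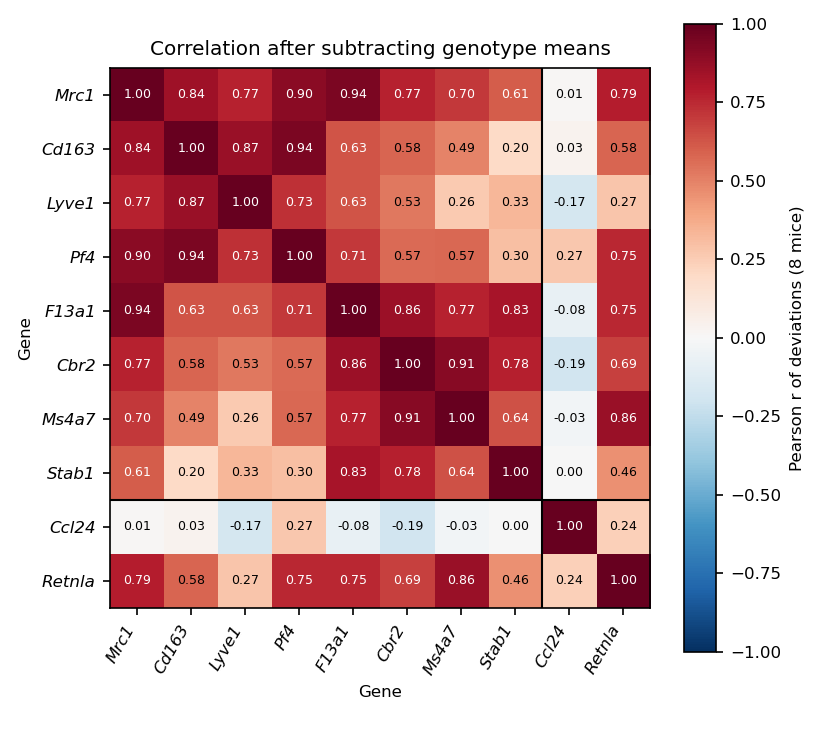
Pearson correlation over 8 mice between the log2 CPM of each pair of genes after the genotype mean was subtracted, on a colour scale from -1 to 1; black lines set *Ccl24* and *Retnla* apart from the 8 border markers. The *Retnla* row holds 0.275 to 0.865 against the markers and the *Ccl24* row -0.190 to 0.268.

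Set beside the mean of the 8 markers, *Retnla* had a correlation of 0.769 and *Ccl24* of -0.032 (n = 8, no test). Among the 10921 genes with a mean of at least 5 CPM, *Retnla* ranked 215th in likeness to this mean and *Ccl24* ranked 5542nd, near the middle. Over the 8 mice without subtraction of the genotype means, the values were 0.892 and 0.566, which include the lower level of all these genes in CSF1 OE. On that scale the correlations of *Retnla* with single markers ran from 0.381 to 0.910, of which 5 of 8 had an adjusted p under 0.05, with 0.0374 as the lowest in an exact permutation test of all 8 mice. Those of *Ccl24* ran from 0.133 to 0.732 and 0 of 8 passed, with 0.0841 as the lowest adjusted p in that permutation test.

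**Figure D3:**
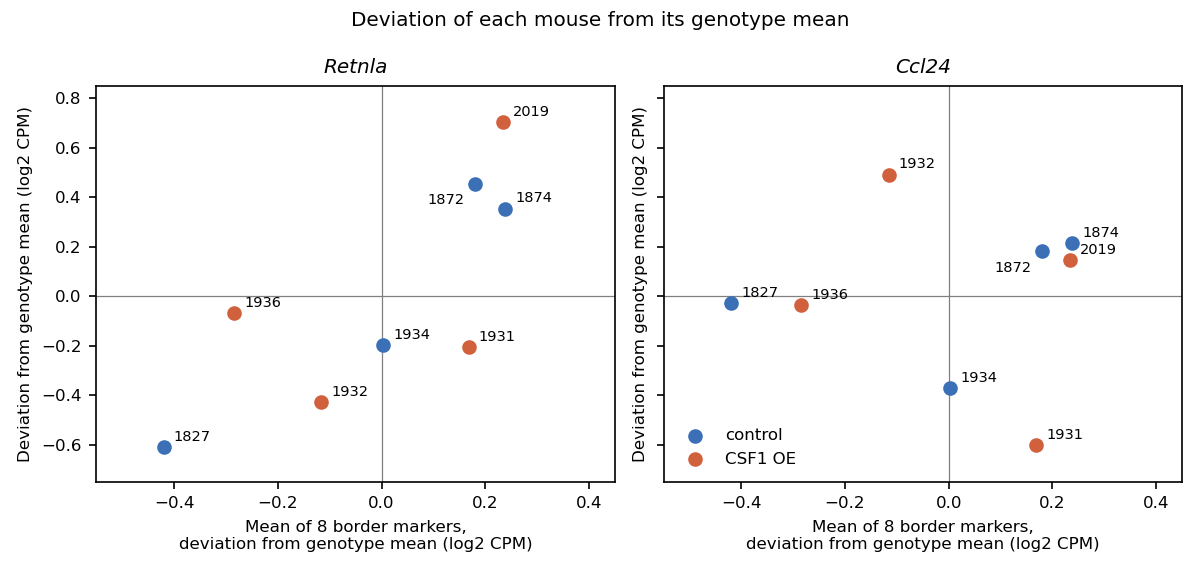
Deviation of *Retnla* (left) and *Ccl24* (right) from the genotype mean (vertical, log2 CPM) against the deviation of the mean of the 8 border markers (horizontal, log2 CPM); each point is 1 mouse with its animal number, control in blue and CSF1 OE in orange. For *Retnla* the points run from mouse 1827 at the lower left to mouse 2019 at the upper right, and for *Ccl24* mice 1931 and 1932 lie away from any such line.

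The level of *Retnla* and *Ccl24* was next taken relative to each marker in the same library, where the scaling of the library cancels. For every 100 counts of *Mrc1*, control mice 1827, 1872, 1874 and 1934 had 1.68, 2.36, 2.19 and 1.57 counts of *Retnla*. CSF1 OE mice 1931, 1932, 1936 and 2019 had 0.844, 0.812, 1.21 and 1.36. All 4 CSF1 OE mice were therefore below all 4 control mice in *Retnla* per *Mrc1*, which was not so for *Retnla* alone. The log2 ratio differed by -0.90 (-5.70 ± 0.29 in control and -6.60 ± 0.37 in CSF1 OE, SD, n = 4 each, two-sided exact permutation test, p = 0.0286, the smallest that 4 mice against 4 allow).

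The ratio of *Retnla* was lower in CSF1 OE for 8 of 8 markers. These ratios share *Retnla*, whose log2 fold change of -1.31 was already below that of every marker (lowest -1.11, *Cd163*). *Retnla* was also singled out on these same libraries, so the 8 ratios restate its lower level and are not separate results. The differences in log2 ratio were -0.90 to *Mrc1*, -0.91 to *Ms4a7*, -0.86 to *Pf4* and -0.83 to *F13a1*, and in these 4 the genotypes did not overlap. To *Lyve1*, *Stab1* and *Cbr2* they were -1.16, -0.98 and -0.74 (exact permutation test, p = 0.0571 each), and to *Cd163* -0.32 (exact permutation test, p = 0.343). With 1 mouse left out, 4 to 7 of the 8 ratios did not overlap, with 7 without CSF1 OE mouse 2019 and 6 without control mouse 1827. The share of all genes to which the ratio of *Retnla* would also not overlap was not computed, so these counts have no background beside them. Of the microglia genes given below, the ratio to *Csf1r* did not overlap and that to *P2ry12* did. The difference to *Cd163* was -0.16 without CSF1 OE mouse 1932, -0.17 without control mouse 1827, -0.20 without control mouse 1872, -0.50 without control mouse 1934 and -0.50 without CSF1 OE mouse 2019. Over the 16 ratios computed the lowest adjusted p was 0.114 in the exact permutation test, so that no ratio passed adjustment, and with 4 mice against 4 none of the 16 could have a raw p under 0.0286.

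For *Ccl24* the same ratios were lower in 7 of 8 markers, by log2 differences from -0.34 (*Cbr2*) to -0.76 (*Lyve1*), and 0.08 higher to *Cd163*, which turned to -0.05 without control mouse 1874, -0.16 without control mouse 1934, -0.07 without CSF1 OE mouse 1932 and -0.0083 without CSF1 OE mouse 1936. The genotypes overlapped in all 8, with p from 0.0857 to 0.857 (exact permutation test). Without CSF1 OE mouse 1931 the difference was -0.013 to *Cbr2*, -0.16 to *F13a1*, -0.27 to *Mrc1*, -0.28 to *Pf4*, -0.23 to *Ms4a7*, -0.30 to *Stab1* and -0.48 to *Lyve1*. Without CSF1 OE mouse 1932 the differences to these 7 markers were larger, from -0.60 (*Cbr2*) to -0.89 (*Lyve1*), and 2 of the 8 ratios no longer overlapped, as was so for 1 without control mouse 1934. *Ccl24* per 100 counts of *Mrc1* was 4.81, 3.71, 3.78 and 2.65 in control and 1.61, 3.89, 3.12 and 2.31 in CSF1 OE mice. CSF1 OE mouse 1932 was thus above 3 of the 4 control mice, and 1931 was below every other mouse. The ratio of *Ccl24* to *Retnla* was 1.57 to 2.86 in control mice, and in CSF1 OE mice 1.91, 4.798, 2.57 and 1.70, with mouse 1932 the highest.

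**Figure D4:**
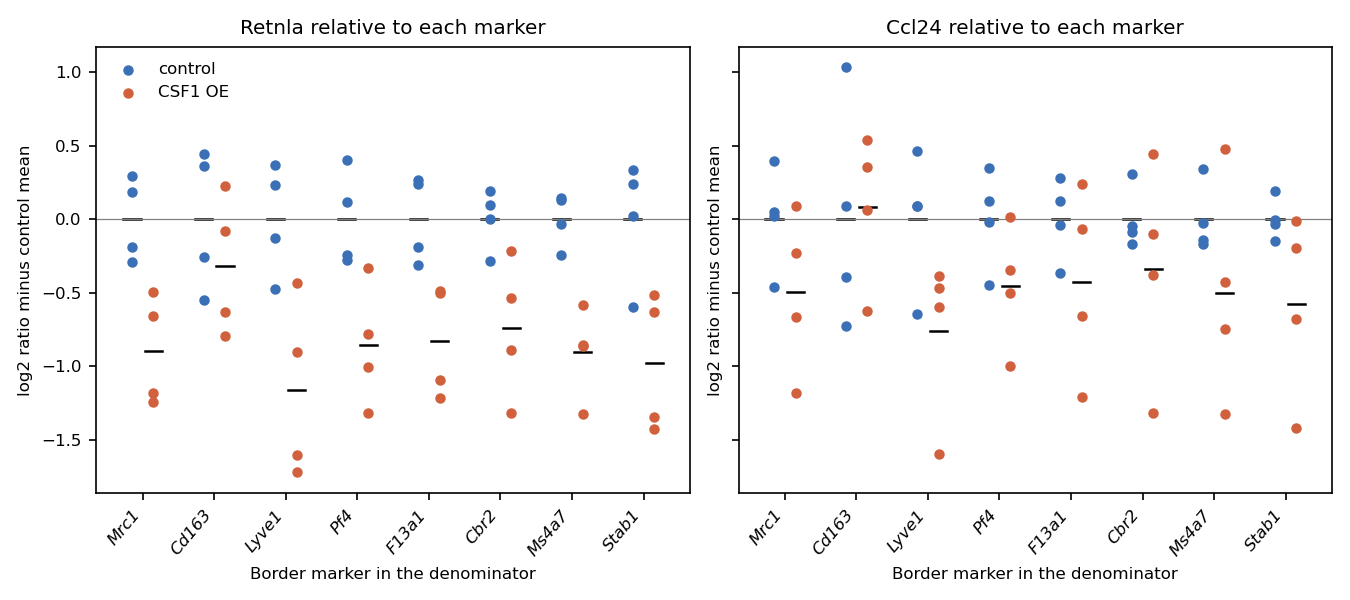
Log2 ratio of *Retnla* (left) and *Ccl24* (right) to each of the 8 border markers, minus the mean of the control mice (vertical); each point is 1 mouse (control blue, CSF1 OE orange) and black lines are the means of 4. For *Retnla* the CSF1 OE means lie at -0.32 to -1.16, and for *Ccl24* the points overlap for every marker.

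Ratios to genes of microglia were compared with the same test, and 0 of 4 passed adjustment. The log2 ratio to *Csf1r*, the receptor for CSF1, differed by -0.99 for *Ccl24* and -1.39 for *Retnla*, with every CSF1 OE mouse below every control mouse (exact permutation test, p = 0.0286 each, adjusted p = 0.0571 over 4 ratios). To the purinergic receptor gene *P2ry12* the differences were -0.70 and -1.10, and the genotypes overlapped (exact permutation test, p = 0.0571 each, adjusted p = 0.0571). When the mean of the 8 markers was added to the edgeR fit as a covariate, the log2 fold change of *Ccl24* was -0.87 (standard error 0.34, adjusted p = 0.648), near its value without the covariate. That of *Retnla* was -0.58 (standard error 0.30, adjusted p = 0.660). The covariate itself was lower in CSF1 OE (7.36 ± 0.24 against 7.83 ± 0.30 in log2 CPM, SD, n = 4 each), so that the covariate and genotype overlap, and neither gene passed in this fit.

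Animal numbers from 1931 to 1936 cover 1 control and 3 CSF1 OE mice, and the other numbers 3 control mice and 1 CSF1 OE mouse. The labels do not say whether these ranges are litters or batches. Each range sets 1 mouse against 3. *Ccl24* did not overlap between genotypes within either range, which its lack of overlap over all 8 mice fixed in advance. Its log2 ratios of the means were -0.52 and -0.89. For *Retnla* they were -1.34 and -0.74, with no overlap in the first range and overlap in the second. The corresponding values were -0.61 and -0.10 for *Mrc1* and -1.39 and -0.86 for *Cd163*. With a term for the range, edgeR gave *Retnla* -1.04 (adjusted p = 0.0409), the only one of the 10 called, beside 9.5% of all genes that this fit called in either direction and 7.24% that it called lower. After a fit of genotype and range together was subtracted, *Retnla* was positively correlated with 8 of 8 markers (0.133 to 0.825) and *Ccl24* with 2 of 8, in a design that leaves 36 permutations.

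Among 28 further genes of border macrophages 26 were tested, of which 19 had a lower and 7 a higher level in CSF1 OE, with 0 called and a median log2 fold change of -0.30. By an unadjusted p under 0.05 from edgeR, 10 were lower and 2 higher, beside 6.44% of all genes tested that were lower. Among the C-type lectin genes were *Cd209b* (-1.71, standard error 0.52, adjusted p = 0.162 from edgeR), *Cd209g* (-1.26, 0.27, adjusted p = 0.0724), *Clec10a* (-1.02, 0.32, adjusted p = 0.168) and *Cd209f* (-0.90, 0.20, adjusted p = 0.0753), and the chemokine gene *Ccl8* was -0.90 (0.49, adjusted p = 0.395). *Cd209f* and *Cd209g* were, as *Ccl24* was, lower in every CSF1 OE mouse than in every control mouse, beside 3.45% of all genes tested. Of the 26, 2 were below and 2 above every control mouse. Over all genes tested, the shares above every control mouse, or higher by an unadjusted p, were not computed. Genes described so elsewhere also have no such background beside them. *Cd209f* had 23.7 to 36.3 CPM in control mice against 12.9 to 21.5 CPM in CSF1 OE mice, and *Cd209g* 8.75 to 15.9 and 4.02 to 7.64 CPM. In the other direction, the chemokine receptor gene *Ccr1* (1.21, standard error 0.30, adjusted p = 0.0973) and the sialoadhesin gene *Siglec1* (0.49, 0.16, adjusted p = 0.196) were higher in every CSF1 OE mouse. *Maf*, a transcription factor of macrophages and the most abundant of the 26 over all mice, had 460 ± 69.3 CPM in control mice against 339 ± 116 CPM in CSF1 OE.

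The relations to these 26 genes were computed after the values above had been seen. *Retnla* was positively correlated with 25 of the 26 within the genotypes (median 0.552), with an unadjusted p under 0.05 for 6 of them in the exact permutation test, and *Ccl24* with 20 of 26 (median 0.276), with 0 under 0.05. No relation passed adjustment over the 52 (lowest adjusted p = 0.286 in that permutation test). The highest for *Retnla* was the dectin-2 gene *Clec4n* (r = 0.925, rho = 0.881, exact permutation test, p = 0.0122 and 0.0156, r = 0.928 without the 2 farthest mice). The highest for *Ccl24* was *Cd209g* (r = 0.775, rho = 0.881, exact permutation test, p = 0.0556 and 0.0122, r = 0.652 without the 2 farthest mice), and *Cd209g* had r = 0.034 with *Retnla*. *Cd209f* had r = 0.622 with *Ccl24* (rho = 0.595, exact permutation test, p = 0.168 and 0.165), 0.0851 without the 2 farthest mice, and r = 0.00382 with *Retnla*.

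**Figure D5:**
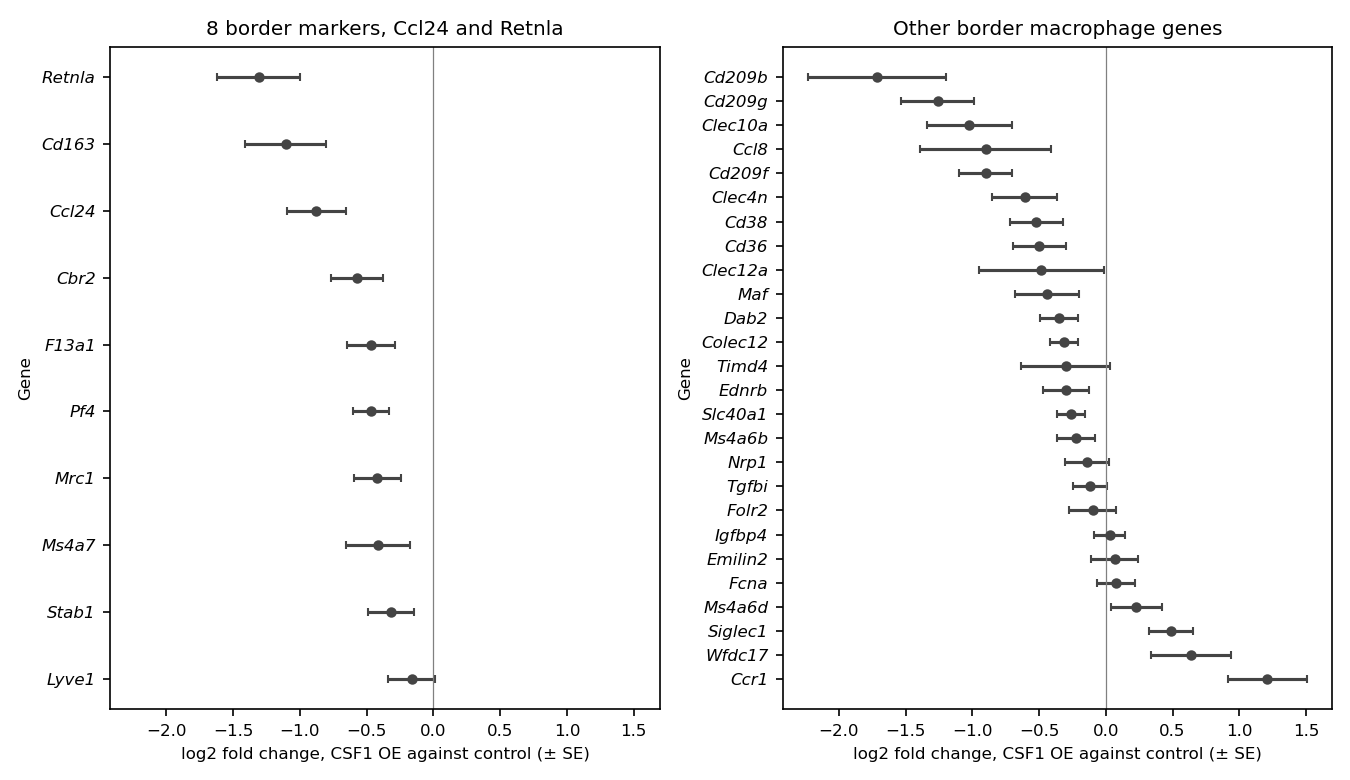
Log2 fold change of CSF1 OE against control (horizontal, ± standard error from edgeR, 4 mice per genotype) for the 8 border markers with *Ccl24* and *Retnla* (left) and for 26 other border macrophage genes (right). All 10 genes on the left lie below 0, and on the right the values run from -1.71 (*Cd209b*) to 1.21 (*Ccr1*).

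Of 21 genes of the response to interleukin-4 and its receptors 17 were tested, with 10 lower, 7 higher and 0 called, and a median of -0.16. The receptor gene *Il4ra* was higher in every CSF1 OE mouse (log2 fold change 0.42, standard error 0.12, adjusted p = 0.149 from edgeR), and *Stat6* was -0.05 (standard error 0.16, adjusted p = 0.888). *Arg1*, the arginase gene often used as an M2 marker, was near the detection limit, at 0.849 ± 0.477 and 0.867 ± 0.224 CPM. The lectin gene *Mgl2* was lower in every CSF1 OE mouse (-1.07, standard error 0.25, adjusted p = 0.0892), and *Cd209a* had the largest difference (-2.87, standard error 0.95, adjusted p = 0.191) on at most 68 counts. The correlations of these last genes with the mean of the 8 markers were 0.877 and 0.897 (n = 8, no test). For *Il4ra* it was 0.061 and for *Stat6* 0.305. Other genes of the list went the other way, with *Irf4* at -0.636, *Myc* at -0.492 and *Tgm2* at -0.484. The summed level of the list had a correlation of -0.0848 with the mean of the markers, so the list as a whole did not follow them.

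MHC class II genes, which a subset of border macrophages and dendritic cells express, differed in direction. Of 6 tested, 4 were lower and 2 higher and 0 were called. The chains that present peptides were lower, with *H2-Eb1* at -2.58 (standard error 0.55, adjusted p = 0.0690 from edgeR) and *H2-Aa* at -2.14 (0.57, adjusted p = 0.123). *H2-DMa*, a chain of the molecule that loads the peptides, was higher, at 1.13 (0.42, adjusted p = 0.235). The correlation with the mean of the border markers was 0.883 for *H2-Eb1*, 0.841 for *H2-Aa* and -0.195 for *H2-DMa* (n = 8, no test).

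Genes related in sequence could share reads with the members. *Retnlb* and *Ccl26* had no count in any mouse, *Retn* and *Ccl11* had at most 1 and 8 counts, and *Retnlg*, a gene of neutrophils, had 6.02 ± 3.66 CPM in control mice against 4.93 ± 5.53 CPM in CSF1 OE. The expected counts of *Retnla* and *Pf4* were whole numbers in 8 of 8 libraries and those of *Ccl24* in 7 of 8, as they would be where no read was divided between genes. For *Mrc1*, *Lyve1*, *F13a1* and *Stab1* no library had a whole number.

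Markers of other cells varied between the mice too. The summed level of 8 blood endothelial genes was 717 to 1208 CPM in control mice against 344 to 840 CPM in CSF1 OE mice, with 8 of 8 genes lower and 0 called. For 7 genes of the choroid plexus epithelium it was 5202 to 6808 and 2080 to 7244 CPM, with 7 of 7 lower and 0 called, and for 5 red blood cell genes 251 to 936 and 38.5 to 434 CPM, with 5 of 5 lower and 0 called. Red blood cell genes were most abundant in control mice 1934 and 1827, at 936 and 804 CPM. The correlation of their summed level with the mean of the border markers was -0.764, that of the endothelial genes -0.324 and that of the choroid plexus genes -0.460 (log2, within genotypes, n = 8, no test). Positive correlations with that mean were found for the platelet genes (0.701), eosinophil and mast cell genes (0.493) and neutrophil genes (0.411). The same 3 sums had correlations of 0.765, 0.746 and 0.724 with *Retnla*, and of 0.141, 0.619 and 0.639 with *Ccl24*. For *Ccl24* the eosinophil and neutrophil values were thus above those with any of the 8 markers (n = 8, no test). So were those of the summed further border macrophage genes (0.463), dendritic cell genes (0.462), interleukin-4 genes (0.291) and homeostatic microglia genes (0.276). The red blood cell genes had -0.753 with *Retnla* and 0.221 with *Ccl24*. The part of these cells in the differences was not tested.

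Eosinophils, which respond to CCL24, were represented by *Prg2* (7.18 ± 4.71 CPM in control, 7.47 ± 10.4 CPM in CSF1 OE), *Epx* (1.04 ± 0.550 and 1.18 ± 1.55 CPM) and *Ccr3* (3.77 ± 1.37 and 2.51 ± 2.01 CPM). Their highest values were in CSF1 OE mouse 2019, as was the summed level of 8 neutrophil genes, at 241 CPM against 19.0 to 64.1 CPM in the other CSF1 OE mice and 52.1 to 116 CPM in control mice. This mouse also had the highest *Retnla* of its genotype. Without it, *Retnla* had a log2 fold change of -1.60. The part of these cells was not tested.

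Over all genes with a mean of at least 5 CPM, those most like each pattern were listed by correlation within the genotypes (n = 8, the highest of 10920 or 10921 values, no test). For *Ccl24* they were *Map4k3* (0.972), *Zfyve20* (0.969), *Tigd2* (0.955), *Ap4m1* (0.943) and *Ascc3* (0.942). For *Retnla* they were *Atg16l2* (0.988), *Gm13212* (0.973), *Casp1* (0.965), *Esf1* (0.962) and *Eps15* (0.960). The mean of the border markers was followed most closely by *Tlr8* (0.988), *Cbll1* (0.986), *Mxd4* (0.960), *Tfec* (0.960) and *Ptpra* (0.958). The lists had no gene in common, but 5 genes each are too few to show whether the patterns differ. *Ms4a7* ranked 82nd of 10920 genes in likeness to *Retnla*, *Mrc1* 266th, *F13a1* 378th and *Pf4* 379th, whereas the best placed marker for *Ccl24* was *Pf4* at 2703rd.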

How the data were processed

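CD11b+ cells of 8 mice, 4 per genotype, were measured by RNA-seq, with 1 library per mouse, grouped by the genotype given in the labels. Per the submitters' processing notes the tools were bcl2fastq 1.8.4, Bowtie 1.0.0 and RSEM 1.2.7, and the build was mm10. The authors deposited expected counts per gene symbol and mouse, not normalized, in which RSEM divides a read that fits several genes. The other deposited table, a signal on the scale of counts, holds the same values divided by the authors by 1 size factor per mouse.

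Expected counts were rounded, and edgeR 4.0.16 in R 4.3.3 was fitted (TMM, filterByExpr, glmQLFit, glmQLFTest) over all genes that passed, with Benjamini-Hochberg adjustment. CPM are scaled to the TMM library size, with a prior count of 2 on the log2 scale. A count of 3, the most that a count of 0 allows, was 0.177 to 0.266 CPM, and covers counting error only. Correlations were tested by permuting mice within genotypes (576 permutations) and ratios over all 70 assignments. The labels do not say that mice came from separate litters, so the p-values measure the spread between these mice. Gene positions follow GENCODE M21 (GRCm38). EBSeq, the model the study used, was not run. Alternatives were DESeq2 1.42.0, limma 3.58.1 on the authors' normalized values (pseudocount 1), other scaling and filters, a term for animal numbers and each mouse left out.

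The 10 genes and the lists were chosen with earlier results of these data known. Named genes are the members, from the other lists those with the largest rise or fall or the highest level, and the 5 most like each pattern. The genes *Cd209f*, *Cd209g*, *Clec10a*, *Clec4n*, *Siglec1*, *H2-Aa*, *Mgl2*, *Stat6*, *Arg1*, *Ccl8*, *Ppbp*, *Clec1b*, *Irf4*, *Myc* and *Tgm2* and the relations with the 26 other border macrophage genes were picked with their values known. The tests were run first on simulated data. Ratios to one further planned microglia gene are not reported here, and adjustment was over the ratios given.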

Additional observations from a re-analysis of the deposited data

Results flagged for a closer look

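Among the 20 groups of 4 values (10 genes in each genotype), 1 had a mouse that stood far from the others. The *Mrc1* level of control mouse 1827 was 807 CPM, and its gap to the next control mouse was 0.849 of the whole range of the 4, above Dixon's critical value for 4 values. Chance alone gives such a mouse in about 1 of 20 groups. The same mouse was the lowest control mouse in 7 of the 8 border markers.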

How the results depend on the processing

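The log2 fold changes of the 10 genes were below 0 in all 162 values computed under the alternatives. Some settings, such as no fold threshold, cannot change a log2 fold change, and the others reuse the same libraries. The adjusted p of *Ccl24* ran from 0.00768 (DESeq2, log2 fold change -0.88) to 0.648, and that of *Retnla* from 0.00241 (DESeq2, -1.31) to 0.660, each highest with the border marker mean as a covariate. With a term for animal numbers *Retnla* was -1.04. The number of the 10 called was 3 with DESeq2, 1 with the term for animal numbers and 0 to 2 with 1 mouse left out. Over all genes edgeR called 59, and 1273 with the term for animal numbers (9.5% of those tested). The log2 fold change without 1 mouse ran from -1.06 to -0.71 for *Ccl24* and from -1.60 to -1.15 for *Retnla*, and the median of the border markers from -0.55 to -0.35.

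The number of positive relations of *Ccl24* with the markers, 3 of 8, was 8 with no genotype mean subtracted, 7 on CPM without the log and 1 to 8 with 1 mouse left out (8 without CSF1 OE mouse 1931, 7 without 1932 and 1 without control mouse 1874), while that of *Retnla* was 7 or 8. With no mean subtracted, the correlation of *Ccl24* was 0.13 with *Lyve1*, 0.53 with *F13a1*, 0.51 with *Cbr2*, 0.40 with *Ms4a7* and 0.49 with *Stab1*. On CPM without the log it was 0.097 with *F13a1*, 0.18 with *Cbr2*, 0.31 with *Ms4a7* and 0.21 with *Stab1*. With *Mrc1* it was -0.0091 on the authors' normalized values and -0.13 with genotype and animal number range subtracted together, where that with *Retnla* was -0.055. With 1 mouse left out, the correlation of *Ccl24* ran from -0.11 to 0.18 with *Mrc1*, from -0.14 to 0.21 with *Cd163*, from -0.38 to 0.17 with *Lyve1*, from -0.24 to 0.23 with *F13a1*, from -0.39 to 0.40 with *Cbr2*, from -0.27 to 0.51 with *Ms4a7* and from -0.24 to 0.56 with *Stab1*. That of *Retnla* with *Lyve1* ran from -0.36, without control mouse 1827, to 0.41, and the difference in the log2 ratio of *Ccl24* to *Cd163* from -0.16 to 0.43. The cause of these changes was not tested.

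No paired analysis was possible because the genotypes share no animal numbers. With 4 mice per genotype, correlations within genotypes rest on 8 mice, and 0 of the 17 passed adjustment.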
